A study of Mus musculus with 18 samples.

Results

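The nuclear genes for the subunits of respiratory complexes II, III and IV and of ATP synthase (complex V) were examined in the caput epididymis, the first part of the epididymal duct, where sperm begin to mature. They were chosen by symbol (Sdha to Sdhd, all Uqcr genes and Cyc1, Cox4 to Cox8 genes and Atp5 genes, without entries named as pseudogenes). This gave 49 of the 53819 gene entries, with 4 for complex II, 9 for complex III, 19 for complex IV and 17 for complex V. RNA was sequenced from C57BL/6J mice in 6 groups of 3 libraries. Control, 6% ethanol (EtOH) and 10% EtOH groups were taken at 10 weeks, and the same 3 treatments after cessation, which the series title gives as one month. No other allele or agent is named. The labels leave out the route of ethanol, the time on ethanol before cessation and the animals' age. They name separate samples without litter, cage or date. The p-values therefore reflect only how these samples scatter, which may be technical. The 2 sets of control libraries carry the difference between the times in age, handling and sequencing together, and these cannot be told apart.

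Complex II, succinate dehydrogenase, feeds electrons from the citric acid cycle into the respiratory chain. It is made only of nuclear-encoded subunits, while complexes III, IV and V combine nuclear-encoded subunits with a few made inside the mitochondrion. Complex III passes electrons to cytochrome c, complex IV passes them to oxygen, and complex V uses the proton gradient that results to make ATP. Several complex IV subunits exist as alternative isoforms for heart and muscle, lung or testis. The series title speaks of signs of mitochondrial dysfunction in the epididymis. The comparison here is of the 4 complexes with each other over the 6 groups.

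Libraries held 10719320 to 21067237 assigned reads, of which the 49 genes took 0.492% to 0.608%. Caput principal cell genes (Gpx5, Lcn5, Adam7 and others) summed to 41483 to 131016 CPM (read counts scaled to the library total, with TMM factors between libraries), so the markers of the labelled tissue were present in every library. The biological coefficient of variation was 17% within the 10-week groups and 31.2% within the cessation groups. Replicate 3 of the 10% EtOH group at 10 weeks has a sample identifier unlike those of the rest of its group, and the sample label and count table of replicate 1 of the 6% EtOH cessation group carry different identifiers. Counts of subunit genes that rest on these libraries are also given without them. Immediate early genes (Fos, Egr1 and others) summed to 483 to 653 CPM at 10 weeks and 824 to 2209 CPM after cessation. In bulk tissue, fewer cells of a type and less RNA per cell cannot be told apart.

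Of the 49 genes, 46 had enough reads to be tested and 41 had a mean of at least 10 CPM. Levels between genes are compared per kilobase of transcript (RPKM). The median level over the genes of at least 10 CPM was 51.1 RPKM in complex II, 115 in complex III, 183 in complex IV and 147 in complex V. In complex II the highest was Sdha, the flavoprotein that binds succinate, at 101 RPKM, and the lowest was Sdhc, a membrane anchor, at 24.3. In complex III, Uqcrh, a small acidic subunit at the cytochrome c docking site, led at 319 RPKM, and Cyc1, cytochrome c1 itself, was lowest at 33.8. Cox6c, a small subunit with no catalytic role, led complex IV at 570 RPKM. In complex V the range was narrow, from Atp5l, subunit g of the membrane part, at 85.9 RPKM to Atp5b, the catalytic beta subunit, at 283.

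Where complex IV subunits have tissue-specific isoforms, nearly all reads per length came from the general one. Cox4i1 supplied at least 99.286% of the per-length level of its pair in every library, and Cox4i2, the lung isoform, at most 0.714%. Cox6a1 supplied at least 99.88% of its pair and Cox8a at least 98.8% of its trio. The testis isoform Cox6b2 reached at most 3.08% of the Cox6b pair. Cox7b2, Cox8b and Cox6a2, the last 2 being heart and muscle isoforms, did not pass the low-count filter, with 13, 4 and 2 reads in their highest library. The Cox7a genes were grouped by symbol, which does not make Cox7a2l an isoform of the same subunit. Cox7a1, the muscle isoform, took 0.535% to 1.58% of the Cox7a group, Cox7a2 38.9% to 44.6%, and Cox7a2l 54.2% to 60.1%. Cox6c2 and Cox8c were at most 0.8843% and 0.986% of theirs. The c subunit of complex V, which forms the rotating ring, was divided among 3 genes that encode the same mature protein. Atp5g1 gave 39.0% to 48.8% of it, Atp5g3 31.0% to 38.1% and Atp5g2 15.7% to 27.0%.

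No subunit gene passed an adjusted p of 0.05 in any of the 10 comparisons of the model over all 18 libraries (edgeR's quasi-likelihood test, Benjamini-Hochberg adjustment over 18618 genes). That test called 0% of all genes in each comparison of treatments and in both differences of effect between the times, 0.118% between the 2 control groups, and 0.295% for any difference among the 6 groups. At an unadjusted p under 0.05 the subunit genes numbered 3 of 46 for 6% EtOH at 10 weeks (2.36% of all genes), 11 of 46 for 10% EtOH at 10 weeks (13.4%), 0 for the doses against each other at 10 weeks (2.83%), 0 for 6% EtOH after cessation (1.62%), 0 for 10% EtOH after cessation (6.66%), 1 for the doses after cessation (7.85%) and 8 between the controls (20.3%). The differences of effect between the times had 1 each (3.01% and 7.44% of all genes), and any difference had 7 (19.8%). DESeq2 called 1, Cox6c for any difference (10.2% of all genes), and 0 in the other comparisons, where it called 0.397% of all genes for 10% EtOH at 10 weeks, 0.00537% for 6% EtOH and for the doses after cessation, 5.34% between the controls, 0.0107% for the difference of the 10% EtOH effect and 0% in the rest. With limma voom 0 passed. With no filter on low counts edgeR called Atp5md for 6% EtOH at 10 weeks (0.121% of all genes), Atp5md, Cox6c, Atp5l and Atp5j for 10% EtOH at 10 weeks (2.02%), Atp5md and Cox6c between the doses after cessation (1.61%), and the same 4 as for 10% EtOH between the controls (4.79%). For any difference it then called 7 (9.99%), adding Cox7b, Atp5pb and Cox4i2 to those 4.

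The first comparison was of 6% EtOH with control at 10 weeks. Genes of complexes III, IV and V lay slightly higher with ethanol, and those of complex II lay on both sides of 0. The summed level of complex III was 778, 779 and 713 CPM in controls and 846, 858 and 887 with 6% EtOH. Complex IV was at 1668, 1638 and 1551 CPM in controls and 1846, 1826 and 1771 with 6% EtOH, and complex V at 2468, 2518 and 2387 against 2626, 2746 and 2739. In these 3 complexes the groups did not overlap. With length and GC trends taken out they overlapped in complex III (804 to 841 CPM in controls, 836 to 920 with 6% EtOH) and complex V (2535 to 2622 and 2604 to 2782), and not in complex IV (1743 to 1769 and 1808 to 1818). Complex II was at 524, 535 and 520 CPM in controls and 516, 553 and 534 with 6% EtOH, and its groups overlapped.

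**Figure D1:**
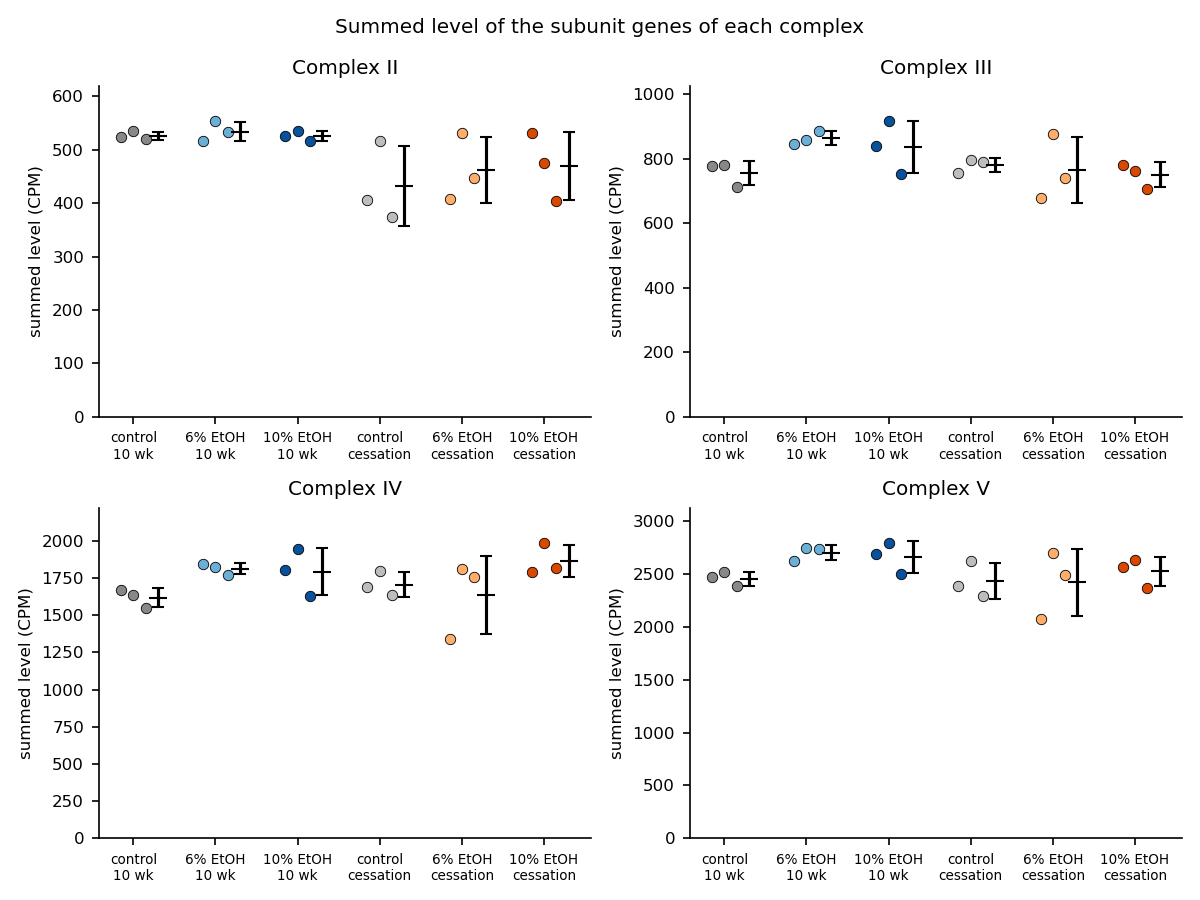
Summed level of the subunit genes of each complex (CPM, vertical axis from 0) by group, with 1 point per library and the mean and SD of 3 libraries beside them. At 10 weeks the 6% EtOH points lie above all control points in complexes III, IV and V (means 864 against 757, 1814 against 1619 and 2704 against 2458 CPM) and not in complex II (534 against 526). With length and GC trends removed, which is not drawn, the points of complexes III and V overlap.

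Gene by gene, the median log2 fold change with 6% EtOH was 0.02 over 4 genes of complex II, 0.17 over 9 of complex III, 0.14 over 16 of complex IV and 0.16 over 17 of complex V, beside -0.01 over all genes tested. Of the 46 genes, 40 lay above 0, against 48.9% of all genes. The control and 6% EtOH libraries did not overlap for 24 of the 46, all higher with ethanol, where 9.67% of all genes did so. These were 1 of 4 in complex II, 6 of 9 in complex III, 7 of 16 in complex IV and 10 of 17 in complex V. When trends with transcript length and GC content were taken out of every library, 13 of 46 were higher without overlap and 1 lower (8.07% and 7.5% of all genes), and the medians of complexes III, IV and V became 0.06, 0.03 and 0.06.

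The 5 genes of smallest p with 6% EtOH were not past the threshold (adjusted p = 1 for each with edgeR). Atp5k, subunit e of the membrane part, which takes part in joining 2 synthases, was at 50.7, 49.6 and 43.1 CPM in controls, 60.7, 62 and 62.5 with 6% EtOH and 61.2, 68.4 and 47.7 with 10% EtOH. Its log2 fold change with 6% EtOH was 0.37 ± 0.16 (standard error), and the 6% EtOH libraries were all above controls while replicate 3 of the 10% EtOH group was not. After cessation Atp5k was at 54.7, 54.1 and 52.6 CPM in controls, 43.8, 66 and 45.6 in the 6% EtOH group and 45.2, 56.7 and 56.6 in the 10% EtOH group, with groups that overlapped. Uqcrc2, a core protein of complex III that holds the complex together, was at 99.1, 92.8 and 90.8 CPM in controls, 111, 111 and 108 with 6% EtOH and 108, 114 and 93.5 with 10% EtOH. Its log2 fold change with 6% EtOH was 0.23 ± 0.11, with no overlap. After cessation Uqcrc2 was at 98.7, 102 and 97 CPM in controls, 79.4, 99.5 and 90.6 in the 6% EtOH group and 96.4, 89.9 and 84.9 in the 10% EtOH group, where the 10% EtOH libraries were all below controls. Atp5md, Uqcrq and Atp5c1 were the other 3 and are described with 10% EtOH.

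With 10% EtOH at 10 weeks genes of the same complex differed from one another in fold change. The medians were -0.02 in complex II, 0.12 in complex III, -0.02 in complex IV and 0.11 in complex V, beside -0.01 over all genes, and 28 of 46 genes lay above 0. At a log2 fold change of 0.40 or more stood Sdhd alone in complex II, Uqcrq alone in complex III, Cox6c, Cox7b and the low-count Cox8c in complex IV, and Atp5md, Atp5l, Atp5j and Atp5pb in complex V. The summed level of complex IV was 1805, 1945 and 1630 CPM and that of complex V 2689, 2794 and 2496, so that replicate 3 lay within the controls in both. Complex II was at 526, 535 and 517 CPM. For 12 of 46 genes all 10% EtOH libraries were higher than all controls and for 1 all were lower (15.2% and 15.5% of all genes, 30.7% in either direction). With length and GC trends taken out these became 10 and 8 (12.6% and 13.4% of all genes). Without replicate 3 of the 10% EtOH group these were 28 and 2 (19.7% and 20.8% of all genes, in 3 libraries against 2).

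**Figure D2:**
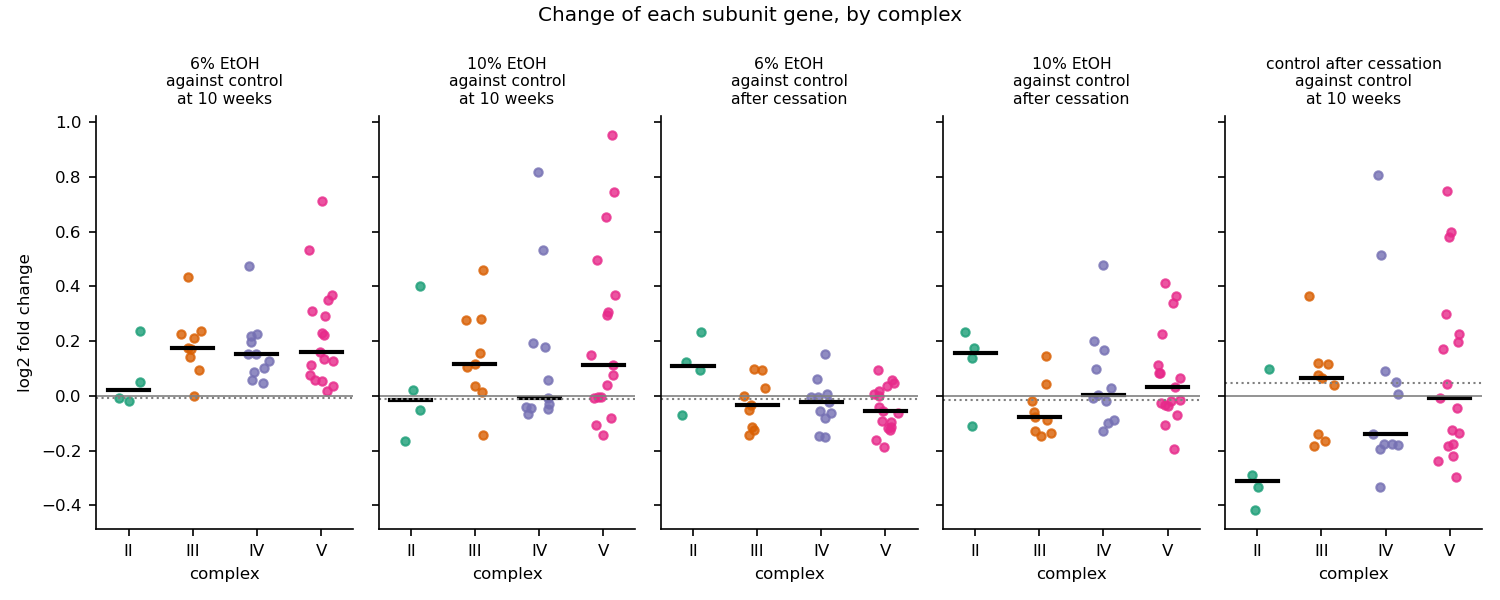
Log2 fold change (vertical axis) of each of the 41 subunit genes of at least 10 CPM by complex in 5 comparisons, with the median of the complex as a black bar, 0 as a solid line and the median of all genes tested as a dotted line. With 10% EtOH at 10 weeks the highest genes are Sdhd (0.40) in complex II, Uqcrq (0.46) in complex III, Cox6c (0.82) in complex IV and Atp5md (0.95) in complex V, and between the control groups 3 of the 4 complex II genes lie between -0.42 and -0.29.

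The 10-week libraries vary less than the later ones, and a fit of the 9 libraries of 10 weeks alone gave calls that the fit of all 18 did not. In it 11 of 44 subunit genes tested were higher with 10% EtOH and 0 lower, where it called 6.17% of all genes in either direction and 3.92% of all genes as higher. They were Atp5md, Cox6c, Atp5l, Atp5pb, Uqcrq, Cox7b, Sdhd, Atp5j, Atp5c1, Uqcrb and Atp5e, with adjusted p from 0.00643 for Atp5md to 0.0496 for Atp5e (edgeR). With 6% EtOH none passed in that fit (0% of all genes), the lowest adjusted p being 0.0721 for Atp5md. Leaving out control replicate 1 or 3 left 0 calls for 10% EtOH, where 0% of all genes were called, and leaving out control replicate 2 left 1, Atp5md (0.0795%). Leaving out 6% EtOH replicate 1, 2 or 3 gave 9, 8 and 8 (4.22%, 2% and 2.86% of all genes), and leaving out 10% EtOH replicate 1 or 2 gave 10 and 9 (7.18% and 8.85%). Leaving out replicate 3 of the 10% EtOH group gave 15 for 10% EtOH (5.22% of all genes) and 5 for 6% EtOH (0.515%).

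The complex V genes of this group belong to different parts of the enzyme. Atp5md encodes DAPIT, a small membrane subunit that takes part in joining 2 synthases. It was at 54.2, 52 and 47.9 CPM in controls, 86.1, 91.8 and 74.6 with 6% EtOH and 88.1, 105 and 105 with 10% EtOH at 10 weeks, so all 6 ethanol libraries were above all 3 controls. Its log2 fold change was 0.71 ± 0.30 with 6% EtOH and 0.95 ± 0.30 with 10% EtOH over all 18 libraries (adjusted p = 1 and 0.299, edgeR). After cessation it was at 97.2, 89.7 and 71.6 CPM in controls, 47.3, 62.9 and 117 in the 6% EtOH group and 59.7, 147 and 137 in the 10% EtOH group, and the groups overlapped. Atp5l, subunit g of the membrane part, was at 33.6, 31.3 and 28.7 CPM in controls, 40.2, 51.8 and 43.5 with 6% EtOH and 46.9, 52.6 and 57.5 with 10% EtOH at 10 weeks. The ethanol libraries were again all above controls, with log2 fold changes of 0.53 ± 0.28 and 0.74 ± 0.29. After cessation Atp5l was at 59.4, 47.7 and 34.9 CPM in controls, 30.4, 39.5 and 60.7 in the 6% EtOH group and 32.5, 80.7 and 69.7 in the 10% EtOH group.

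Atp5j encodes coupling factor 6, part of the peripheral stalk that holds the catalytic head still. It was at 82.4, 84 and 90.1 CPM in controls, 107, 112 and 109 with 6% EtOH and 112, 121 and 170 with 10% EtOH at 10 weeks. Its level with 10% EtOH was above that with 6% EtOH in every library, but narrowly (111.87 CPM in 10% EtOH replicate 1, 111.53 in 6% EtOH replicate 2). The log2 fold change of Atp5j against control was 0.65 ± 0.24 with 10% EtOH (adjusted p = 0.299, edgeR over 18 libraries). After cessation Atp5j was at 155, 134 and 95.6 CPM in controls, 85.5, 98.3 and 160 in the 6% EtOH group and 92.4, 161 and 153 in the 10% EtOH group. Atp5pb, subunit b of the same stalk, was at 115, 111 and 111 CPM in controls, 129, 148 and 136 with 6% EtOH and 154, 150 and 172 with 10% EtOH at 10 weeks. It also stood in the order control, 6% EtOH, 10% EtOH with no overlap, at 0.50 ± 0.18 with 10% EtOH. After cessation Atp5pb was at 130, 159 and 106 CPM in controls, 101, 112 and 153 in the 6% EtOH group and 125, 211.5 and 162 in the 10% EtOH group, with the highest single value in a 10% EtOH library. Against 6% EtOH after cessation the 10% group differed by 0.45 ± 0.18 with overlap between libraries (adjusted p = 0.634, edgeR).

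The gamma and epsilon subunits differed by less. Atp5c1, the gamma subunit that forms the central shaft, was at 144, 141 and 144 CPM in controls, 170, 163 and 171 with 6% EtOH and 170, 185 and 171 with 10% EtOH at 10 weeks. Every ethanol library was above every control, at 0.23 ± 0.11 and 0.30 ± 0.11 on the log2 scale. After cessation Atp5c1 was at 158, 177 and 157 CPM in controls, 136, 161 and 174 in the 6% EtOH group and 170, 187 and 164 in the 10% EtOH group. Atp5e, the epsilon subunit at the foot of the shaft, was at 92.2, 100 and 78.2 CPM in controls, 110, 112 and 114 with 6% EtOH and 109, 132 and 107 with 10% EtOH at 10 weeks, with log2 fold changes of 0.31 ± 0.16 and 0.37 ± 0.16. After cessation Atp5e was at 112, 110 and 110 CPM in controls, 86, 124 and 113 in the 6% EtOH group and 76.4, 116 and 117 in the 10% EtOH group. Atp5b, the catalytic beta subunit, was at 567, 589 and 577 CPM in controls, 569, 582 and 605 with 6% EtOH and 575, 558 and 477 with 10% EtOH at 10 weeks, and its fold changes were 0.02 ± 0.15 and -0.11 ± 0.15. After cessation Atp5b was at 474, 539 and 523 CPM in controls, 516, 644 and 479 in the 6% EtOH group and 592, 486 and 419 in the 10% EtOH group.

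In complex IV, Cox6c was at 170, 163 and 188 CPM in controls, 249, 251 and 222 with 6% EtOH and 266, 287 and 364 with 10% EtOH at 10 weeks. The 3 groups formed separate ranges, with log2 fold changes against control of 0.47 ± 0.31 and 0.82 ± 0.31. After cessation Cox6c was at 365, 318 and 228 CPM in controls, 178, 212.1 and 432 in the 6% EtOH group and 236, 563 and 472 in the 10% EtOH group. Replicate 2 of the 10% EtOH group had the highest level of the 18 libraries, and replicate 1 of the 6% EtOH group was within the range of the 10-week controls. Cox7b, a small subunit needed to build the complex, was at 85.5, 87.6 and 86.6 CPM in controls, 101, 104 and 96.6 with 6% EtOH and 107, 122 and 146 with 10% EtOH at 10 weeks, again in 3 separate ranges. Its log2 fold changes were 0.22 ± 0.21 and 0.53 ± 0.21. After cessation Cox7b was at 152, 112 and 107 CPM in controls, 82.9, 115 and 153 in the 6% EtOH group and 97.9, 170 and 149 in the 10% EtOH group. The 9 other complex IV genes of at least 10 CPM had log2 fold changes between -0.07 and 0.19 with 10% EtOH. Cox4i2 was the 1 gene lower without overlap, and was listed at 0 reads in all 3 libraries of 10% EtOH and at 0.205, 0.169 and 0.116 CPM in controls, so the level was at the floor of detection in both.

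In complex III, Uqcrq, a small accessory subunit, was at 74.1, 71.7 and 69.2 CPM in controls, 88.8, 98.7 and 103 with 6% EtOH and 91.8, 109 and 95.2 with 10% EtOH at 10 weeks. All ethanol libraries were above controls, at 0.43 ± 0.19 and 0.46 ± 0.19. After cessation Uqcrq was at 96.8, 97.4 and 82.7 CPM in controls, 62.5, 94 and 114 in the 6% EtOH group and 74, 122 and 111 in the 10% EtOH group. Uqcrb, another small accessory subunit, was at 57.3, 56.8 and 57.5 CPM in controls, 60.6, 67 and 61.7 with 6% EtOH and 72.5, 68.5 and 66.8 with 10% EtOH at 10 weeks, and at 54.7, 65.4 and 66.1 CPM in controls, 58.9, 62 and 50.8 in the 6% EtOH group and 71.8, 56.8 and 47.7 in the 10% EtOH group after cessation. Its log2 fold change with 10% EtOH was 0.28 ± 0.13, and it was -0.24 with length and GC trends taken out. Uqcr11, also a small accessory subunit, was at 101, 96.6 and 85.1 CPM in controls, 113, 107 and 112 with 6% EtOH and 109, 126 and 108 with 10% EtOH at 10 weeks and at 108, 108 and 89.3 CPM in controls, 77.3, 110 and 93 in the 6% EtOH group and 90.3, 92.6 and 96.7 in the 10% EtOH group after cessation. Its log2 effect of 10% EtOH differed between the times by -0.41 ± 0.18 (adjusted p = 0.663, edgeR). Cyc1 was at 55.5, 56 and 47.8 CPM in controls, 55.2, 59.9 and 64.4 with 6% EtOH and 58, 56.1 and 49.2 with 10% EtOH at 10 weeks and at 42.4, 52 and 45.8 CPM in controls, 45.4, 53.4 and 44.2 in the 6% EtOH group and 46.3, 48.5 and 43.5 in the 10% EtOH group after cessation. It was among the genes of lowest p for any difference among the groups (adjusted p = 0.229, edgeR), with the lower values after cessation.

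Uqcrh was at 167, 176 and 156 CPM in controls, 193, 184 and 200 with 6% EtOH and 181, 205 and 149 with 10% EtOH at 10 weeks and at 163, 161 and 197 CPM in controls, 160, 206 and 154 in the 6% EtOH group and 186, 155 and 150 in the 10% EtOH group after cessation, with every 6% EtOH library of 10 weeks above the controls.

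The 2 membrane anchors of complex II differed from each other. Sdhd was at 60.7, 61.9 and 60.8 CPM in controls, 70.2, 75.4 and 70.8 with 6% EtOH and 77.9, 76.9 and 87.5 with 10% EtOH at 10 weeks, so that control, 6% and 10% EtOH formed 3 separate ranges, with log2 fold changes of 0.24 ± 0.15 and 0.40 ± 0.15. Sdhc, its partner in binding heme and ubiquinone, was at 87.9, 90.8 and 87.8 CPM in controls, 84.7, 87.2 and 92.8 with 6% EtOH and 81.4, 88.1 and 68.5 with 10% EtOH at 10 weeks, with log2 fold changes of -0.01 ± 0.18 and -0.16 ± 0.18. Across the 18 libraries the log2 levels of Sdhc and Sdhd had a Pearson r of -0.11. Sdha and Sdhb, the catalytic pair, had one of 0.69, and Sdhb and Sdhc one of 0.67 (description over libraries that share depth and group). After cessation Sdhd was at 61.3, 78.6 and 56.6 CPM in controls, 57.3, 66 and 64 in the 6% EtOH group and 65.1, 99.2 and 67 in the 10% EtOH group, and Sdhc at 52.1, 77.4 and 70 CPM in controls, 67.1, 96.4 and 70.5 in the 6% EtOH group and 78.8, 56.2 and 49.6 in the 10% EtOH group. Replicate 2 of the 10% EtOH group held the highest Sdhd level of all libraries together with one of the lowest of Sdhc, 56.2 CPM.

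**Figure D3:**
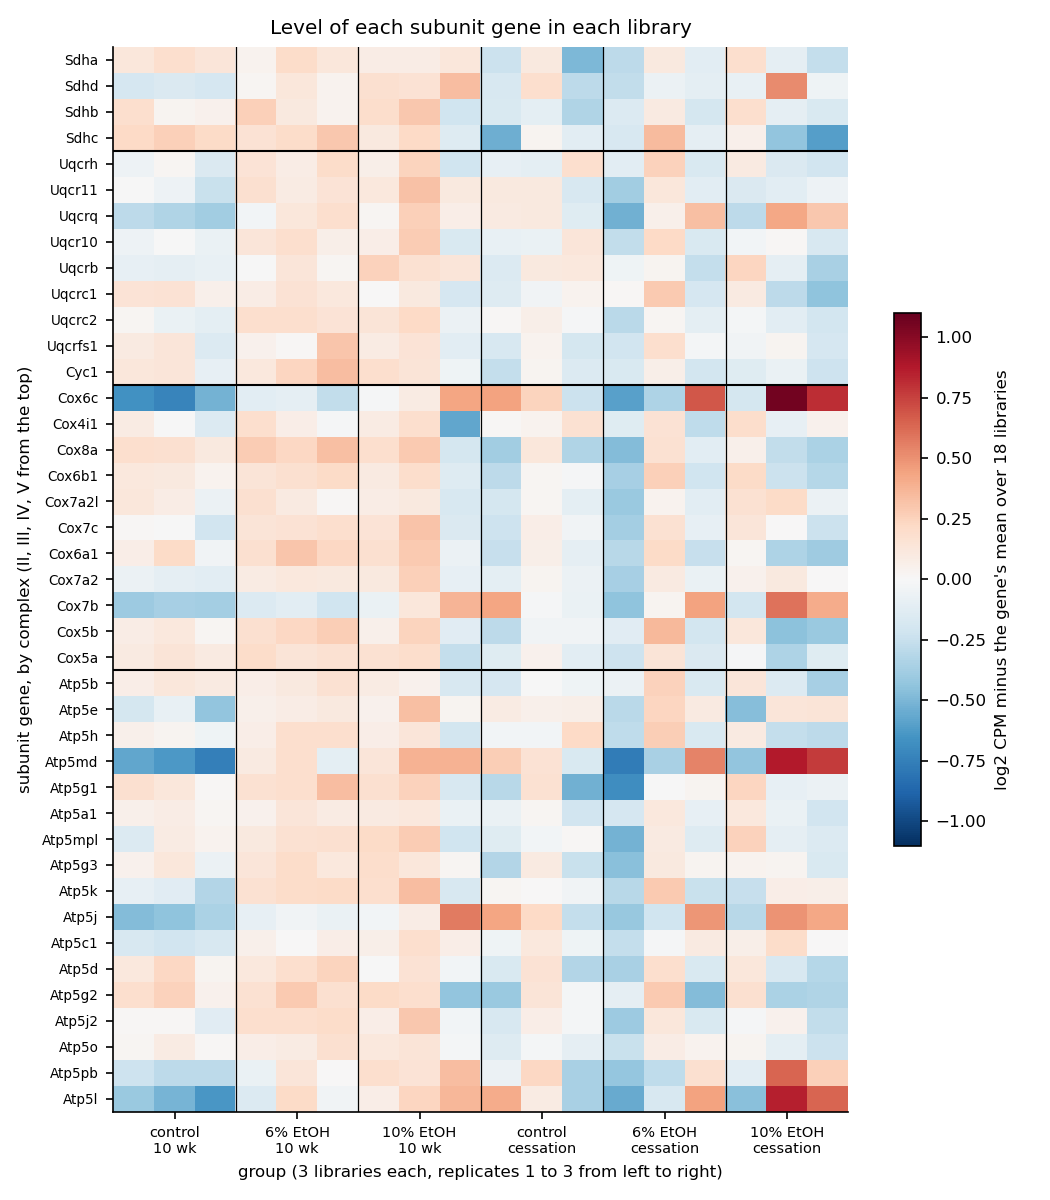
Log2 CPM of each of the 41 subunit genes of at least 10 CPM (rows, by complex) in each of the 18 libraries (columns, by group), relative to the gene's mean over all libraries (colour). Cox6c, Atp5md, Atp5l, Atp5j and Cox7b stand out from the other rows, low in the 3 controls of 10 weeks (mean of the 5 genes -0.50 to -0.54), lowest in replicate 1 of the 6% EtOH cessation group (-0.56) and, on their mean, highest in replicates 2 and 3 of the 10% EtOH cessation group (0.78 and 0.61).

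After cessation the libraries of the 3 treatment groups overlapped in the summed level of each of the 4 complexes. The summed levels in control, 6% and 10% EtOH groups were 432 ± 75.4, 462 ± 62.4 and 470 ± 63.6 CPM (SD, n = 3) for complex II and 780 ± 20.6, 765 ± 101 and 750 ± 38.8 for complex III. They were 1706 ± 81.8, 1636 ± 259 and 1865 ± 106 for complex IV and 2437 ± 171, 2422 ± 319 and 2525 ± 136 for complex V. The complex IV mean with 10% EtOH was above that of controls by more than the SD of either group, with libraries at 1790, 1986 and 1819 CPM against 1691, 1795 and 1633. Within this sum the single gene Cox6c had a mean of 304 CPM in controls and 423 with 10% EtOH, so much of the difference lay in 1 gene. The ratio of complex IV to complex V was 0.696, 0.755 and 0.767 with 10% EtOH and 0.707, 0.683 and 0.712 in controls, which also overlapped. The medians of complexes II to V were 0.11, -0.03, -0.04 and -0.05 with 6% EtOH and 0.16, -0.08, -0.01 and 0.03 with 10% EtOH. Groups did not overlap for 0 of 46 genes with 6% EtOH (2% of all genes higher, 2.01% lower, 4.01% in either direction), 1 with 10% EtOH (6.46%), which was Uqcrc2, and 0 between the doses (8.59%). Cox5b, a zinc-binding subunit of complex IV, was at 67.1, 79.7 and 79.8 CPM in controls, 75.3, 105 and 71.5 in the 6% EtOH group and 89.7, 60 and 61.7 in the 10% EtOH group, after 87.1, 89.2 and 83.1 CPM in controls, 93, 96.4 and 99.1 with 6% EtOH and 85.4, 97.5 and 75.1 with 10% EtOH at 10 weeks. Cox7a2l was at 223, 259 and 237 CPM in controls, 192, 261 and 235 in the 6% EtOH group and 287, 295 and 244 in the 10% EtOH group, after 277, 269 and 244 CPM in controls, 288, 273 and 257 with 6% EtOH and 270, 274 and 226 with 10% EtOH at 10 weeks. Both overlapped between all groups after cessation. Cox4i2 was at 0.831, 0.184 and 2.51 CPM in controls, 1.39, 0.394 and 0 in the 6% EtOH group and 0, 0.301 and 0.577 in the 10% EtOH group and Cox8c at 0.95, 0.614 and 0.992 CPM in controls, 0.696, 0.263 and 1.23 in the 6% EtOH group and 0.531, 0.451 and 0.793 in the 10% EtOH group, levels that rest on at most 38 and 16 reads in a library. Without replicate 1 of the 6% EtOH group, which had the lowest sums of complexes III, IV and V, 2 genes were higher with 6% EtOH without overlap (5.07% of all genes).

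Between the doses at 10 weeks, 6 of 46 genes were higher with 10% than with 6% EtOH without overlap and 0 lower (7.22% and 6.39% of all genes). They were Sdhd, Cox6c, Cox7b, Atp5j, Atp5pb and Cox8c, the last with at most 16 reads in any library. The medians of the 4 complexes were -0.03, -0.07, -0.12 and -0.04, so most genes lay slightly lower at the higher dose. Without replicate 3 of the 10% EtOH group the complex IV median was 0.00, and 8 genes were higher without overlap and 0 lower (10.5% and 9.45% of all genes). The 2 doses are not independent contrasts with control, since both use the same 3 control libraries.

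By the median over its genes, complex II differed most between the controls of the 2 times. Sdha was at 316, 330 and 319 CPM in controls at 10 weeks and 247, 314 and 206 after cessation, a log2 fold change of -0.33 ± 0.15. Sdhb, the iron-sulfur subunit that hands electrons on, was at 58.5, 52.5 and 53 against 45.7, 47.7 and 40.9 CPM, and Sdhc at 87.9, 90.8 and 87.8 against 52.1, 77.4 and 70. All 3 were lower after cessation with no overlap, and Sdhd was not. The median was -0.31 in complex II, 0.06 in complex III, -0.01 in complex IV and -0.01 in complex V, beside 0.05 over all genes. The 5 genes of smallest p lay outside complex II and were higher after cessation without overlap (adjusted p from 0.168 to 0.19, edgeR). Their log2 fold changes were 0.81 ± 0.31 for Cox6c, 0.75 ± 0.30 for Atp5md, 0.58 ± 0.24 for Atp5j, 0.51 ± 0.21 for Cox7b and 2.08 ± 0.82 for the low-count Cox8c. In all 4 complexes 10 genes were higher and 9 lower without overlap (12% and 13.1% of all genes). With length and GC trends taken out these became 1 and 16 (8.94% and 12.3% of all genes), and the complex IV median became -0.24. Control replicate 2 of the cessation group was the exception in complex II, at 517 CPM against 406 and 373 in replicates 1 and 3. Without it Sdha was lower at a log2 fold change of -0.51 and passed the threshold, as did 14% of all genes (edgeR). Between the same controls, smooth muscle genes had a median of 1.71 (9 of 10 above 0, summed level 1569 to 1924 CPM at 10 weeks and 1959 to 2099 after cessation), endothelial genes 1.63 (6 of 6, 40.1 to 77.8 and 46.0 to 278.9 CPM) and macrophage genes 0.78 (10 of 10, 212.985 to 244 and 252 to 578 CPM). Red blood cell genes had 1.17 (5 of 5), fibroblast genes 0.74 (6 of 7), late germ cell genes 0.72 (10 of 11), basal cell genes 0.37 (6 of 6), and principal cell genes -0.05 (5 of 13). The summed level of the principal cell genes was 79788 to 88180 CPM at 10 weeks and 42638 to 100342 after cessation, lowest in replicate 3. Immediate early genes had 1.84 (9 of 10 above 0), and 3 of 10 passed the threshold. Their part in the levels of complex II genes was not tested.

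With the treated groups included, Sdha was at 299, 335 and 317 CPM with 6% and 308, 307 and 316 with 10% EtOH at 10 weeks. After cessation Sdha was at 238, 313 and 268 and 329, 271 and 242, and Sdhb at 46.2, 55.1 and 44.9 and 58.3, 47.9 and 45.6. Sdhb at 10 weeks was at 61.8, 55.3 and 52.9 with 6% and 58.9, 63.3 and 44.1 with 10% EtOH. The ratio of the summed complex II level to that of complex V brings these together. It was 0.212, 0.213 and 0.218 in controls at 10 weeks, the 3 highest of the 18 libraries, 0.196, 0.201 and 0.195 with 6% EtOH, and 0.196, 0.192 and 0.207 with 10% EtOH. After cessation it was 0.170, 0.197 and 0.163 in controls and between 0.171 and 0.207 in the treated libraries. At 10 weeks all 6 ethanol libraries were below the controls in this ratio, and 5 of them were above all controls in the complex V sum, the exception being replicate 3 of the 10% EtOH group. The mean complex V sums were 2458, 2704 and 2660 CPM in control, 6% and 10% EtOH. With length and GC trends taken out they were 2564, 2709 and 2691, closer together, and those of complex II 528, 540 and 534. The ratio was not recalculated on these corrected sums. Complex II sums were 373 to 531 CPM after cessation and 516 to 553 at 10 weeks.

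Other genes of the pathway are given from lists. Complex I subunits, the entry point for NADH, lay higher at 10 weeks, with 36 of 37 above 0 and a median of 0.17 with 6% EtOH, and 22 higher without overlap (9.67% of all genes). With 10% EtOH 28 of 37 lay above 0, with a median of 0.16 and 16 higher without overlap (15.2% of all genes). Assembly factors of complexes II to V had medians of 0.13 and 0.11, and mitochondrial mass genes such as Vdac1 and Cs 0.06 and 0.08. Regulators of respiratory chain genes (Nrf1, Gabpa, Ppargc1a and others) had -0.04 and -0.01. Cytochrome c and electron donors had 0.16 and 0.19, with 7 of 8 above 0 for each dose. No gene of these lists passed the threshold over all 18 libraries (edgeR). Length and GC trends were not taken out of the list values. Markers of cell types at 10 weeks stood as follows. Caput principal cell genes had medians of 0.33 and 0.69 with 6% and 10% EtOH (11 of 13 above 0 for each, summed level 79788 to 88180 CPM in controls and 93530 to 131016 with ethanol), adipocyte genes 1.98 and 0.07 (summed level 12.4 to 25.8 CPM in controls and 14.4 to 53.1 with ethanol), and fibroblast genes 0.25 and 0.57 (614 to 757 CPM against 663 to 997). Macrophage genes had medians of 0.22 and 0.40 (9 and 10 of 10 above 0, 212.985 to 244 CPM in controls and 262 to 413 with ethanol), and smooth muscle genes 0.24 and 0.34 (8 of 10 above 0 for each). Basal cell genes had -0.19 and -0.41, red blood cell genes 0.88 and -0.60, late germ cell genes 0.13 and 0.04, endothelial genes -0.02 and 0.20, clear and narrow cell genes -0.02 and -0.12, and ciliated efferent duct genes -0.25 and -0.38. Immediate early genes had -0.30 and -0.32, with 0 of 10 above 0 for each dose. Their part in the levels of the subunit genes was not tested.

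The 5 subunit genes that varied most over the 18 libraries were Cox6c, Atp5md, Atp5l, Atp5j and Cox7b, with SDs of 0.52, 0.50, 0.44, 0.36 and 0.33 on the log2 scale, where the 41 genes had a median of 0.19 and the 5839 genes of like level one of 0.22. The next was Sdhc at 0.29. The 5 were chosen by this spread, and their correlation is a description. Over the 18 libraries their 10 pairs had Pearson r between 0.90 and 0.97. With the other 36 subunit genes the median r was -0.20, while those 36 had a median of 0.59 with each other. Over all pairs within complex IV the median r was 0.53, and over all pairs within complex V it was 0.44.

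The 13 subunits encoded by the mitochondrial genome were likewise highest in replicates 2 and 3 of the 10% EtOH cessation group. Their summed level was 8935 to 13077 CPM in controls at 10 weeks, 10383 to 14944 with 6% EtOH and 15682 to 30284 with 10% EtOH, the highest being replicate 3. After cessation it was 20407 to 32149 in controls, 10510 to 36195 with 6% EtOH and 11701, 50598 and 44969 with 10% EtOH. The mean centred log2 level of the 5 genes followed it with r = 0.88 (Spearman 0.78) over the 18 libraries, 0.85 within the 9 of 10 weeks and 0.91 within the 9 of cessation, and 0.81 without the 2 libraries farthest from the median. For the other 36 genes r was -0.56, -0.26 and -0.46 over the 18, the 9 of 10 weeks and the 9 of cessation (Spearman -0.54, 0.02 and -0.38). These are descriptions over libraries that share the scaling to a common total. At 10 weeks the 5 genes also followed the summed level of the principal cell genes (r = 0.95, n = 9). Within the 9 of cessation that r was 0.65, and over all 18 libraries it was 0.42. With the summed immediate early genes r was -0.83 at 10 weeks, -0.69 within cessation and -0.05 over all 18.

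**Figure D4:**
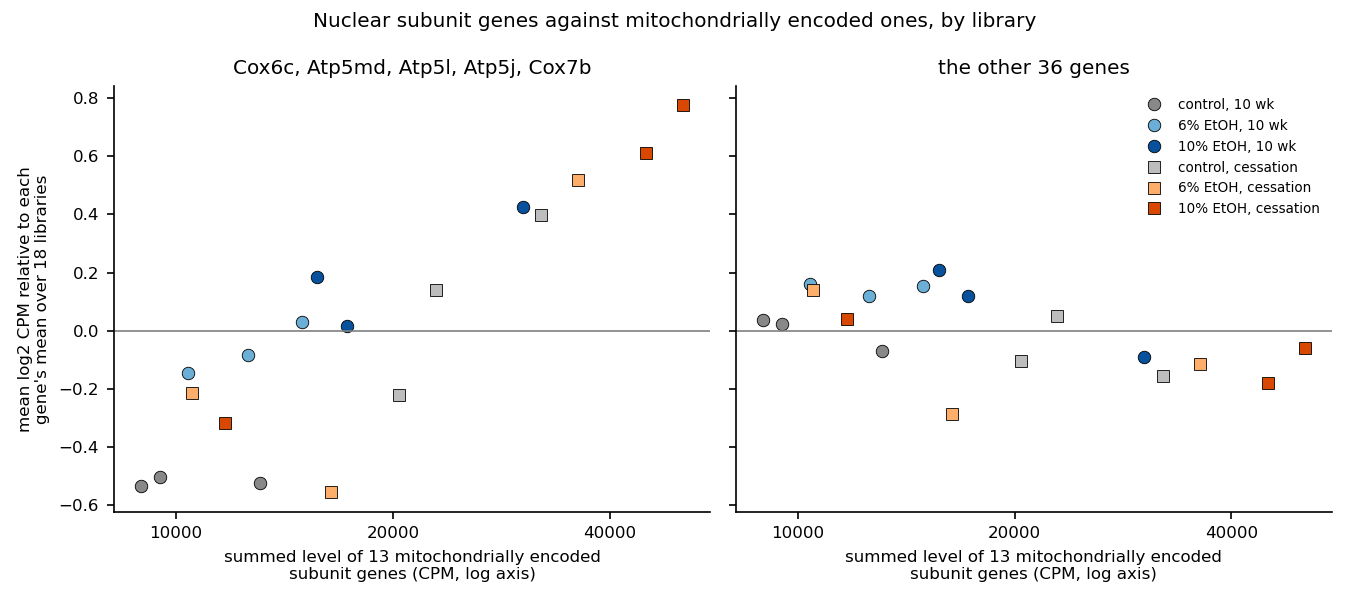
Mean log2 level of Cox6c, Atp5md, Atp5l, Atp5j and Cox7b (left) and of the other 36 subunit genes of at least 10 CPM (right), relative to each gene's mean, against the summed level of the 13 mitochondrially encoded subunit genes (CPM, log axis). Each point is a library, coloured by group, with circles for 10 weeks and squares for cessation. The left points lie between -0.56 and 0.78 and go up with the horizontal axis (r = 0.88), and the right points lie between -0.29 and 0.21 (r = -0.56).

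The stretches upstream of the start site are shown for 4 of the 5 genes because these genes vary together, with Atp5b and Cox6a1 from the other 36 for contrast. They are the 250 bases before the start in RefSeq (GRCm38.p6, an earlier build than the one the counts were made on), matched by symbol for 36 of the 49 genes and written 5′ to 3′ along the gene. Sdhc, Cyc1, Uqcrb, Uqcrc2, Uqcrq, Cox4i1, Cox4i2, Cox6a2, Cox6c, Cox6c2, Cox8c, Atp5a1 and Atp5mpl were not matched. For Atp5j the downstream of its 2 listed starts is shown. Capitals mark exact matches on either strand to 6 motifs, namely NRF1 (the 10 capitals in Cox6a1), GABPA of the ETS family (CCGGAAG), YY1 (AAGATGGCG), ERRA (TCAAGGTCA), the TATA box (TATAAA) and the CCAAT box (CCAAT). No 2 matches overlap in the windows shown.
Atp5md (chr19:47090648-47090897, minus strand): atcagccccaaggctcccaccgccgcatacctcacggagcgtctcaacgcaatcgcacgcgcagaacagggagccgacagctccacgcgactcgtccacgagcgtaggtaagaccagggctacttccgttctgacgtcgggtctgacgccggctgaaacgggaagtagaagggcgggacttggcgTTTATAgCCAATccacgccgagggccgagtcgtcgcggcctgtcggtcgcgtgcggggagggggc
Atp5l (chr9:44920743-44920992, minus strand): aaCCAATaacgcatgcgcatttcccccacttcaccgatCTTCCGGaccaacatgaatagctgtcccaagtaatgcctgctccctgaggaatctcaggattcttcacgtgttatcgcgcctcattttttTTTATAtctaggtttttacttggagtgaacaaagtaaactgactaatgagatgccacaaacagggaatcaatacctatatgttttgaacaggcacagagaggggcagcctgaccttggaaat
Atp5j (chr16:84834977-84835226, minus strand): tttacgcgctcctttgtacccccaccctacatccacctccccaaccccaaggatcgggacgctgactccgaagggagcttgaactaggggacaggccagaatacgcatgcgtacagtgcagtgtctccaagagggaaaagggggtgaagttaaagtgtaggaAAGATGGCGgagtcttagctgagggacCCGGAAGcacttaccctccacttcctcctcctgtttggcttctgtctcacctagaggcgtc
Cox7b (chrX:106015450-106015699, plus strand): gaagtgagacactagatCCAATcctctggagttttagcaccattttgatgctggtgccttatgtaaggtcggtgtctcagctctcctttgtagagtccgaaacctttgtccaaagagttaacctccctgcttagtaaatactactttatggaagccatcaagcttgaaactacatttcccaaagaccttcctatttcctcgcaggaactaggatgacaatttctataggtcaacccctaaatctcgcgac
Atp5b (chr10:128083057-128083306, plus strand): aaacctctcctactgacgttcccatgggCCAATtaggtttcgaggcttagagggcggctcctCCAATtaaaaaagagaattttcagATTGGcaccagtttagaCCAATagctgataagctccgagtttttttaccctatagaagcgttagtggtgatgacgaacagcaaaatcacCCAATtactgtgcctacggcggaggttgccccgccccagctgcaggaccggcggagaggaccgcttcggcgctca
Cox6a1 (chr5:115348959-115349208, minus strand): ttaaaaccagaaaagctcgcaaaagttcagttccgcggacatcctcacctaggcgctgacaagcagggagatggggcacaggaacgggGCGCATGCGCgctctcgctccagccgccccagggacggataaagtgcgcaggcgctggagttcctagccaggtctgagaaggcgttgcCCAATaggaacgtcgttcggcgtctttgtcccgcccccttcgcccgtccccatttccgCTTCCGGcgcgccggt

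Atp5md holds a TATA box followed by a CCAAT box, and Atp5l an upstream CCAAT box, a GABPA match and a TATA box. The Atp5j start shown holds YY1 and GABPA matches, while the 250 bases before its other start hold no match. Cox7b holds only a CCAAT box far from the start. Atp5b holds 5 CCAAT boxes, and Cox6a1 one match each to NRF1, CCAAT and GABPA. No motif was shared by all 4 windows. Over windows that reach from 250 bases before to 50 after the start, GABPA was found in 13 of 36 genes (9.93% of 27025 genes), the CCAAT box in 20 (41.1%), NRF1 in 4 (1.07%), the TATA box in 4 (15.7%), and YY1 and ERRA in 2 each (1.64% and 0.466%). These are matches of letters and not sites of binding.

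Shorter transcripts of these genes had the higher fold changes at 10 weeks. Over the 41 genes of at least 10 CPM the Spearman correlation of the log2 fold change with transcript length was -0.51 with 6% EtOH and -0.40 with 10% EtOH, where all tested genes had -0.16 and -0.07. With GC content it was -0.18 and -0.32 (all genes -0.12 and -0.37). These are correlations across genes, which are not independent replicates. The median transcript was 2066 bases long in complex II, 547 in complex III, 645 in complex IV and 714 in complex V, so the complexes differ in length too. With length and GC trends taken out of each library, the log2 fold change with 10% EtOH was 0.47 for Atp5md, 0.57 for Cox6c, 0.49 for Atp5l, 0.69 for Atp5j and 0.10 for Cox7b. That of Sdhd was 0.35 and of Sdhc -0.13. Between the controls the medians of complexes III, IV and V became -0.16, -0.24 and -0.16, and Sdha, Sdhb and Sdhc were at -0.35, -0.28 and -0.42.

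**Figure D5:**
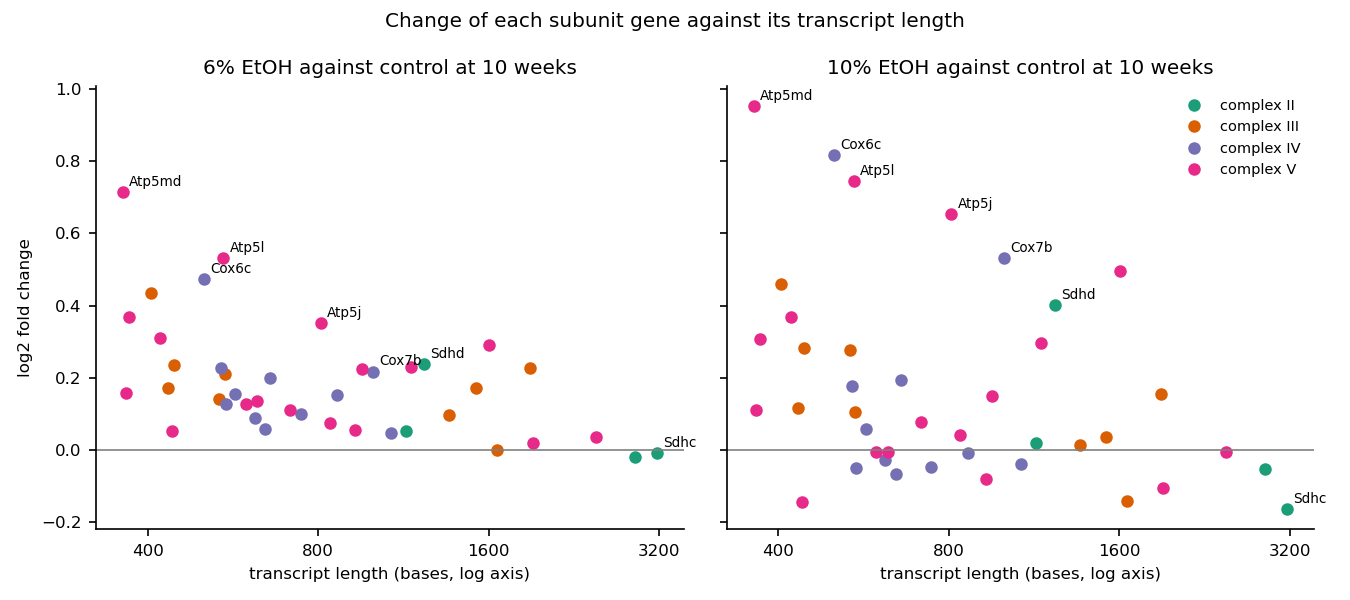
Log2 fold change (vertical axis) of the 41 subunit genes of at least 10 CPM against transcript length (bases, log axis) for 6% EtOH (left) and 10% EtOH (right) against control at 10 weeks, coloured by complex. The highest points are short transcripts such as Atp5md (362 bases, 0.71 and 0.95), and the longest, Sdha and Sdhc, lie at or below 0.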

How the data were processed

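Whole-caput RNA was sequenced in 18 libraries. The authors deposited raw read counts per gene, made with Trimmomatic, STAR and featureCounts on GRCm39, per the submitters' processing notes. No source here names their versions or the strand setting. The subunit genes and the lists were chosen with earlier results of these data known. Counts were tested with edgeR 4.0.16 (R 4.3.3): TMM scaling, filterByExpr (minimum count 10, total 15), robust quasi-likelihood fit of all 18 libraries with 1 term per group, 2-sided, Benjamini-Hochberg over 18618 genes, threshold 0.05. The script was tested on simulated data. Transcript length and GC came from GRCm38 transcripts, for 98.7% of tested genes. Alternatives were RLE size factors, no filter, 1 CPM in 3 libraries, DESeq2 1.42.0, limma voom 3.58.1, length and GC trends removed by splines with 4 degrees of freedom, the 9 libraries of one time, and each library left out. Genes named with all values were, per comparison, the 5 of smallest p, and the highest and lowest per complex. Of these, Cox4i2 and Cox8c are given in part. Isoforms of 1 subunit are given mostly by their shares. Replicates differed by more than counting noise (chi-square per degree of freedom at least 5.35).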

Additional observations from a re-analysis of the deposited data

How the results depend on the processing

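With no filter on low counts, the subunit genes past the threshold numbered 1 for 6% EtOH and 4 for 10% EtOH at 10 weeks, 2 between the doses after cessation, 4 between the controls and 7 for any difference. The 9 libraries of 10 weeks alone gave 11 for 10% EtOH, and DESeq2 gave 1 for any difference. Leaving out 1 of the 18 libraries gave 0 for both doses at 10 weeks, 0 to 1 between the controls (Sdha) and 0 to 1 for any difference (Cox4i2), the 1 in each case without control replicate 2 after cessation. Leaving out 1 of the 9 gave 0, 1 or 0 for 10% EtOH without a control library, 9, 8 or 8 without a 6% EtOH library, and 10, 9 or 15 without a 10% EtOH library, and 5 for 6% EtOH without replicate 3 of the 10% EtOH group. Where these fits called subunit genes, the shares of all genes called stand beside the counts above. For the call of Cox4i2 without control replicate 2 after cessation, no share of all genes is given, so it is not read as a result. Cox4i2 held 108 reads in all and 0 reads in 6 libraries. That same fit called 14% of all genes between the controls. Over all genes, any difference gave 55 calls, with 1898 by DESeq2, 3632 with no filter and 17 by limma voom. Between the controls these were 22, 994, 1740 and 3, and 2724 without control replicate 2 after cessation. For 10% EtOH at 10 weeks they were 0, with 74 by DESeq2, 736 with no filter and 1059 in the 9 libraries. With no filter, 44 genes passed for 6% EtOH and 60 between the doses at 10 weeks, and 51, 407 and 585 for 6% EtOH, 10% EtOH and the doses after cessation. The cause was not tested.

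With length and GC trends removed, the medians for 6% EtOH at 10 weeks were 0.055 (complex III), 0.025 (IV) and 0.063 (V), that of complex III for 10% EtOH was -0.019, and those between the controls were -0.16 (III), -0.24 (IV) and -0.16 (V). Complex II for 6% EtOH was 0.041 with no filter, and complex IV between the controls -0.082 by limma voom. Leaving out 1 of the 18 libraries gave, for 6% EtOH at 10 weeks, 0.0056 to 0.043 in complex II, 0.098 to 0.159 in IV and 0.131 to 0.211 in V (0.146 without 6% EtOH replicate 3). Among the 9 libraries complex II was 0.049 without control replicate 1 and 0.043 without 6% EtOH replicate 2, and IV and V were 0.194 and 0.218 without control replicate 2. For 10% EtOH at 10 weeks the ranges were -0.066 to 0.047 in II, 0.014 to 0.224 in III, -0.096 to 0.112 in IV and 0.051 to 0.218 in V, and among the 9 libraries IV and V were 0.111 and 0.214 without 10% EtOH replicate 3. Between the doses at 10 weeks they were -0.081 to 0.029 in II and -0.183 to 0.0037 in IV, and 0.032 and 0.0065 among the 9 without that library. For 10% EtOH after cessation they were -0.109 to -0.0017 in III and -0.152 to 0.037 in IV. Among the 9 libraries after cessation III and IV were 0.035 and 0.072 without 10% EtOH replicate 3, and IV was -0.11 without replicate 1. Between the controls they were -0.030 to 0.076 in III and -0.063 to 0.078 in IV.

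Genes whose groups did not overlap, under alternatives chosen after seeing the data, numbered 14 for 6% EtOH at 10 weeks (8.07% of all genes higher, 7.5% lower) and 0 for 10% EtOH after cessation (2.59% and 3.51%) with length and GC trends removed, and 1 between the doses after cessation with RLE size factors (3.65% and 4.97%). Without replicate 3 of the 10% EtOH group they numbered 30 for 10% EtOH at 10 weeks (19.7% and 20.8%). Without replicate 1 of the 6% EtOH cessation group they numbered 2 for 6% EtOH (5.07% and 5.36%) and 1 between the doses after cessation (5.78% and 7.84%). The log2 fold change of Cox5b with 6% EtOH after cessation ranged from -0.045 without replicate 2 of that group to 0.254 without replicate 3, and was -0.035 without replicate 2 in the 9 libraries. In Uqcrb the difference of the 10% EtOH effect between the times turned to 0.101 with length and GC trends removed. No paired analysis was possible because the labels give sample identifiers and no replicate numbers. With 3 libraries a group, the spread after cessation limits what can be detected.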
